A study of Sus scrofa with 18 samples.

Results

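The 76 genes described here code for proteins of the mitochondrial ribosome and of the machinery that imports proteins into mitochondria. They were taken as every gene with a symbol beginning with MRPL or MRPS and a digit, with TIMM or with TOMM, where the array's annotation gives the probe set that symbol alone. In all 99 probe sets carried these symbols, and the brightest probe set over the 18 arrays stood for each gene. The set is 76 of the 6765 genes the array names and holds 36 MRPL genes (large ribosomal subunit), 22 MRPS genes (small subunit), 11 TIMM genes (inner membrane and intermembrane space) and 7 TOMM genes (outer membrane). TOMM40, TIMM23, TIMM17A, MRPL12 and MRPS18B are not among the named probe sets.

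The study addressed ischaemia and reperfusion injury of transplanted pig kidneys and how carbon monoxide (CO) treatment affects it. RNA of 18 kidneys was hybridised to Affymetrix pig arrays: 2 naive kidneys that were not transplanted, 4 untreated grafts and 4 CO-treated grafts at 4 h, and 4 of each at 24 h. Donors 1 to 4 gave the 4 h grafts and donors 5 to 8 the 24 h grafts, and each donor number stands on 1 untreated and 1 CO array. The treatment field of every graft, the CO grafts included, reads air; the titles and source names, which name CO, were followed here. The labels give no breed, genotype, age or sex, and do not say whether the CO was given to the donor, the graft or the recipient. They do not say what handling the naive kidneys had.

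Mitochondria keep their own ribosomes, which translate the few membrane proteins of the respiratory chain coded by mitochondrial DNA. All the proteins of those ribosomes are coded in the nucleus, made in the cytosol and imported: precursors pass the TOM complex of the outer membrane and are then sorted, by the TIM23 complex into the matrix, by the TIM22 complex into the inner membrane, or with small TIMM chaperones across the intermembrane space. The kidney's proximal tubule cells are rich in mitochondria and depend on respiration, and their mitochondria are an early site of damage when blood flow stops and returns.

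Every one of the 76 genes was measured above background on every array. Background was put at 1.61 on the log2 scale, the level below which 95% of the values of 17 tag control probe sets lay, whereas 6766 of the 23999 probe sets fell below it on at least 1 array. The genes' means over all arrays ran from 2.93 for MRPS23 to 8.27 for TOMM5; a probe set's brightness depends on its probes, so these levels give no order among genes. Their median SD over the 18 arrays was 0.34 on the log2 scale, against 0.32 over all probe sets.

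The names of the arrays divide them unevenly. A number string in the array names puts naive 1 with donors 1, 3 and 4 of both 4 h groups (batch 1), and naive 2 with donor 2 of both 4 h groups and untreated donor 5 (batch 2). The remaining 24 h arrays form batch 3, apart from CO donor 6, which stands alone as batch 4. CO 24 h therefore shares no batch with any naive or 4 h array. The untreated 4 h array of donor 1 lay nearest to the naive arrays, with a root mean square log2 difference from the naive mean of 0.40 over all probe sets against 0.61 to 0.87 on the other graft arrays. Numbers in the names of the naive arrays recur in those of donor 4, so naive kidneys and donor 4 may be the same animals. Only 2 naive arrays stand behind every comparison with naive kidney. The adjusted p-values below come from limma over all 23999 probe sets with Benjamini-Hochberg adjustment, a gene was called at an adjusted p under 0.05, and they measure only the spread between these kidneys. In RNA from whole tissue, fewer cells of a type and less RNA per cell cannot be told apart.

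At 4 h the median of the mitochondrial genes lay below its naive level on every graft array, and at 24 h it was near that level. The median of the 76 genes relative to the naive mean was -0.23, -0.40, -0.50 and -0.24 on the log2 scale in untreated 4 h grafts of donors 1 to 4. It was -0.54, -0.27, -0.49 and -0.34 in the CO 4 h grafts. It was 0.14, 0.01, 0.09 and -0.10 in untreated 24 h grafts of donors 5 to 8, and 0.39, 0.03, 0.07 and -0.00 in CO 24 h grafts. The 8 arrays at 4 h did not overlap the 8 at 24 h, while the medians of all probe sets on the same arrays stayed between -0.07 and 0.06. The plot of the genes' median on each array shows this step, and the heat map of all 76 genes shows which of them made it.

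**Figure D1:**
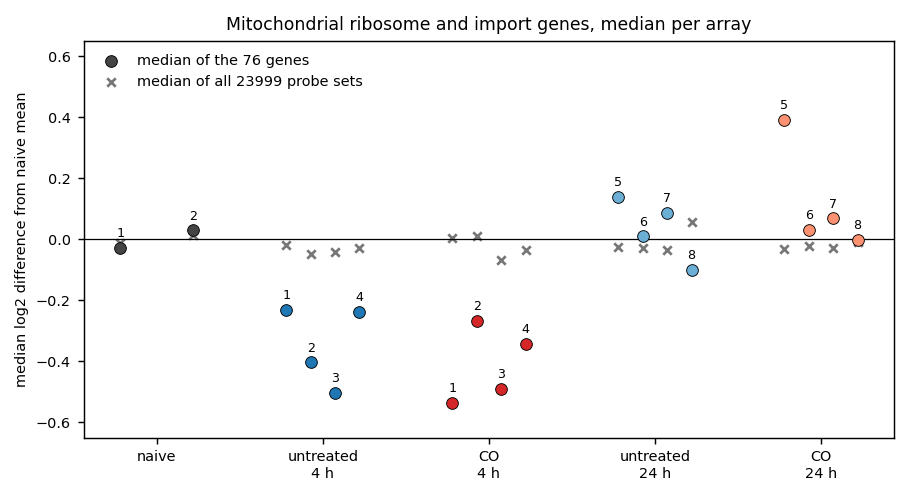
Median log2 difference from the naive mean over the 76 mitochondrial ribosome and import genes (circles, labelled by naive array or donor number) and over all 23999 probe sets (crosses) on each of the 18 arrays, by group. The circles of the 4 h grafts lie between -0.54 and -0.23, those of the 24 h grafts between -0.10 and 0.39, and the crosses stay near 0.

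**Figure D2:**
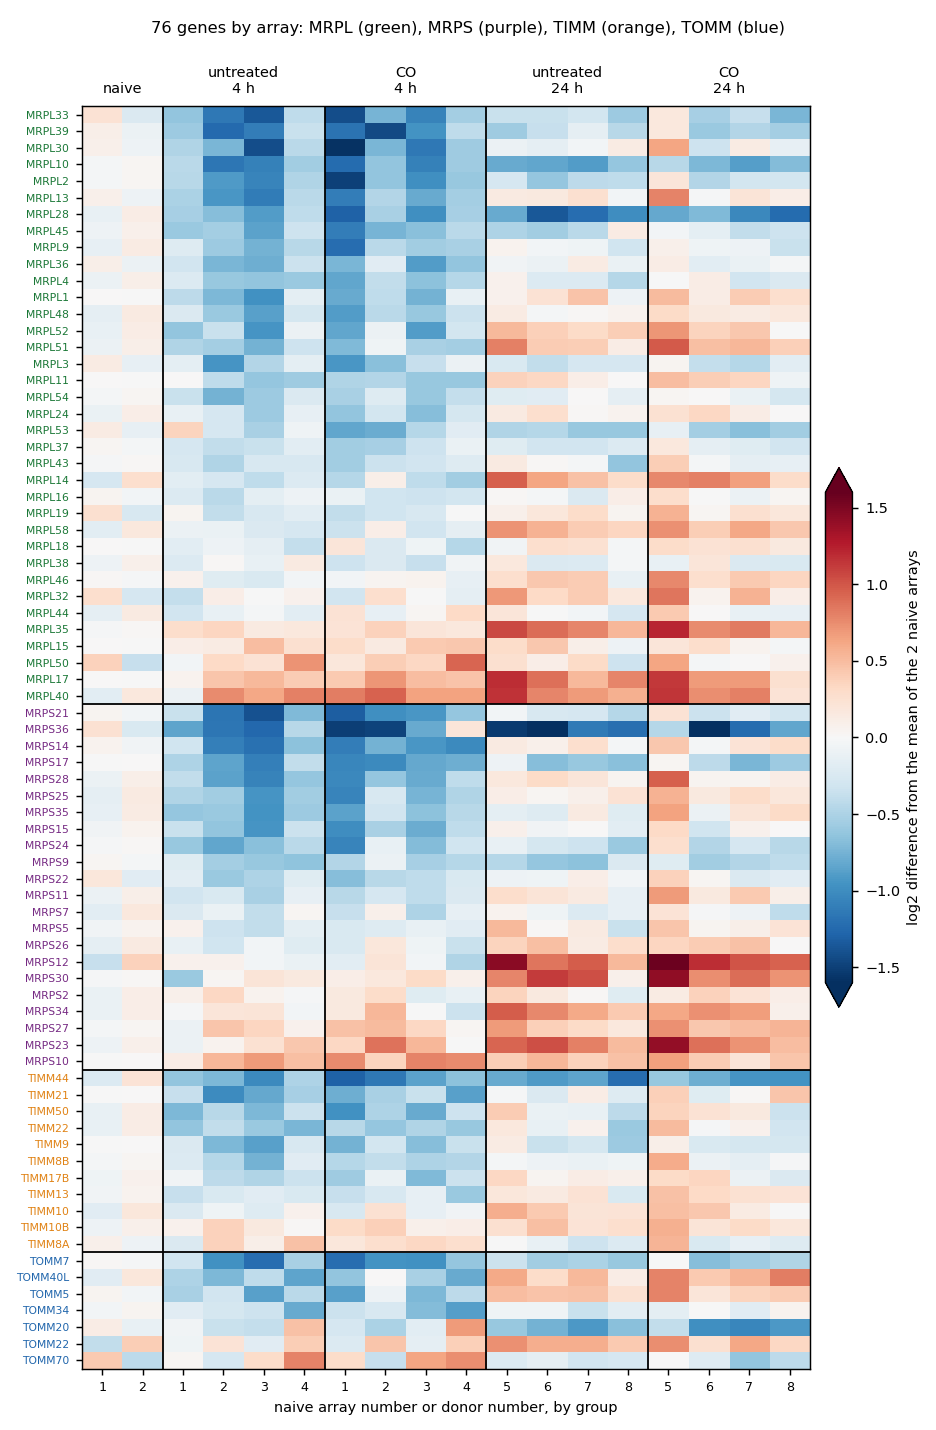
Log2 difference from the mean of the 2 naive arrays for each of the 76 genes (rows, grouped as MRPL, MRPS, TIMM and TOMM) on each of the 18 arrays (columns, by group). Most rows are blue in the 4 h columns and pale or red in the 24 h columns, while MRPL28, MRPL10 and TIMM44 are blue in all graft columns and MRPL35, MRPL17 and MRPS12 are among the reddest at 24 h.

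In untreated grafts at 4 h, 62 of the 76 genes had a mean below naive and 14 above. The genes' median log2 difference was -0.38, against -0.03 over all probe sets and -0.06 over named genes. None of the 76 was called by limma, where 0.942% of all probe sets were called higher and 0.563% lower. At an unadjusted p under 0.05, 35 were lower and 1 higher, against 11.2% of all probe sets lower and 9.5% higher. The 3 of smallest p were MRPS14, MRPL10 and MRPS21, at log2 differences of -0.81 ± 0.21 (SE), -0.81 ± 0.22 and -0.91 ± 0.25, with limma adjusted p of 0.0545, 0.0662 and 0.0686. In 43 genes every untreated 4 h array lay below both naive arrays, as did 15.8% of all probe sets, and 4 genes lay above on every array, as did 11.5% of all probe sets. The count depended on the array of donor 1: without it limma called 18 of the genes lower and 2 higher. The share of all probe sets called without that array is not given here, so this count cannot be set against it.

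MRPS14 is a protein of the small subunit's head. Its log2 level was 6.75 and 6.63 in the naive kidneys, and 6.37, 5.60, 5.50 and 6.03 in untreated 4 h grafts of donors 1 to 4. It was 5.58, 5.93, 5.75 and 5.67 in CO 4 h grafts, 6.83, 6.78, 6.96 and 6.66 in untreated 24 h grafts, and 7.12, 6.65, 6.92 and 6.99 in CO 24 h grafts. All 8 arrays at 4 h were below both naive arrays and below all 8 arrays at 24 h, and the 24 h and naive ranges overlapped.

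In CO-treated grafts at 4 h, 60 of the 76 genes were below naive and 16 above. The genes' median was -0.45, against -0.01 over all probe sets and -0.08 over named genes. Limma called 17 of the 76 lower and 1 higher, where 6.72% of all probe sets were called lower and 6.84% higher. Among the 6765 named genes 10.7% were lower and 9.8% higher. The 17 were 10 of 36 MRPL genes, 5 of 22 MRPS genes, 1 of 11 TIMM genes and 1 of 7 TOMM genes. MRPL30 fell by 1.00 ± 0.31 (SE) and MRPL39 by 1.00 ± 0.29. Next came TIMM44 (-0.99 ± 0.20), MRPS21 and MRPS14 (both -0.96), MRPL33 and TOMM7 (both -0.94) and MRPL2 (-0.93 ± 0.25), with limma adjusted p from 0.00833 for TIMM44 to 0.0412 for MRPL33. MRPS17, MRPL10, MRPL28, MRPL45, MRPL9, MRPS15, MRPS25, MRPL36 and MRPL4 also fell, by 0.92 to 0.59. In 43 genes all CO 4 h arrays lay below both naive arrays, as did 20.01% of all probe sets. Above both naive arrays on every CO 4 h array lay 7 genes, as did 17.6% of all probe sets. MRPL33's other probe set, at a similar brightness, did not fall (-0.05), so the gene's change rests on 1 probe set.

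These calls leaned on few arrays. Without naive 1 or without naive 2 limma called none of the 76 genes, with 27 and 21 lower and 2 higher at an unadjusted p under 0.05. Without CO donor 1 it called 3 (MRPS14, MRPS17 and TIMM44), and without CO donor 3 it called 7, all lower. With the array batch as a block 9 were lower and 1 higher, and with only the CO 4 h and naive arrays in the fit 6 were lower and 1 higher. Shares of all probe sets in these refits are not given here, so the counts cannot be set against them. Within batch 1 the median difference of the genes was -0.47 (1 naive array, 3 CO arrays) and within batch 2 it was -0.29 (1 and 1); for untreated 4 h grafts the values were -0.36 and -0.47.

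MRPL30, a large-subunit protein, was at 7.30 and 7.14 in naive kidneys and at 6.74, 6.49, 5.81 and 6.80 in untreated 4 h grafts. In CO 4 h grafts it was at 5.64, 6.50, 6.08 and 6.66. In untreated 24 h grafts it was at 7.13, 7.08, 7.19 and 7.35, and in CO 24 h grafts at 7.86, 6.89, 7.36 and 7.09. Every 4 h array was below every naive and 24 h array, and CO donor 1 had the lowest level at 4 h.

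TOMM7, a small subunit that modulates the assembly of the TOM complex, was at 8.68 and 8.64 in naive kidneys. It was at 8.34, 7.69, 7.44 and 8.14 in untreated 4 h grafts, and at 7.44, 7.71, 7.70 and 8.04 in CO 4 h grafts. At 24 h it was at 8.31, 8.10, 8.15 and 8.06 in untreated and at 8.65, 7.98, 8.09 and 8.18 in CO grafts. The naive arrays were apart from all 4 h arrays, and the 4 h and 24 h arrays overlapped.

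MRPS10, a protein of the small subunit's head, was the only one of the 76 called higher at 4 h, in CO grafts (0.67 ± 0.17, SE, limma adjusted p = 0.0202). Its levels were 6.39 and 6.41 in naive kidneys, 6.52, 6.93, 7.08 and 6.89 in untreated 4 h grafts, and 7.16, 6.75, 7.20 and 7.16 in CO 4 h grafts. The 24 h levels were 6.79, 6.93, 6.77 and 6.87 in untreated and 7.06, 6.81, 6.60 and 6.84 in CO grafts. All graft arrays were above both naive arrays, with untreated donor 1 at 4 h the nearest to them.

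At 24 h genes were called above and below naive kidney, in each direction at a smaller share than among named genes. In untreated grafts limma called 6 of the 76 higher and 4 lower, where 6.79% of all probe sets were called higher and 7.77% lower; among named genes 12.2% were higher and 10.7% lower. The genes' median difference was 0.01, equal to the 0.01 over all probe sets, and 38 genes were above 0 and 38 below. MRPS12 (0.94 ± 0.26, SE), MRPL17 (0.84 ± 0.21), MRPS23 (0.82 ± 0.25), MRPL35 (0.81 ± 0.17), MRPS34 (0.69 ± 0.23) and MRPL58 (0.51 ± 0.16) rose, with limma adjusted p of 0.00545 for MRPL35 and up to 0.0494 for MRPS34. MRPS36 (-1.38 ± 0.40), MRPL28 (-1.09 ± 0.23), TIMM44 (-0.94 ± 0.20) and MRPL10 (-0.79 ± 0.22) fell, with limma adjusted p from 0.00485 for MRPL28 to 0.0299 for MRPS36. MRPS23, read from 1 probe set, was dim, at a mean of 2.42 in naive and 3.24 in untreated 24 h grafts, above the background of 1.61. With arrays centred on their medians 3 of the 76 genes were higher and 5 lower, and the genes' median was -0.07. Of the 10 genes, MRPL58 (also known as ICT1) releases peptides from stalled mitochondrial ribosomes, and MRPS36 has since been assigned to the 2-oxoglutarate dehydrogenase complex rather than the ribosome.

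In CO grafts at 24 h limma called 6 of the 76 higher and 2 lower than naive, where 5.75% of all probe sets were called higher and 5.93% lower; among named genes 10.5% were higher and 8.29% lower. The genes' median was 0.15, against -0.02 over all probe sets, with 48 genes above 0 and 28 below. MRPS12 (1.17 ± 0.26, SE), MRPS30 (0.94 ± 0.27), MRPS23 (0.87 ± 0.25), MRPL35 (0.84 ± 0.17), MRPL17 (0.69 ± 0.21) and MRPL58 (0.54 ± 0.16) rose, with limma adjusted p from 0.00617 for MRPL35 to 0.0475 for MRPL17. MRPL28 (-0.95 ± 0.23) and TIMM44 (-0.82 ± 0.20) fell, at limma adjusted p of 0.0136 and 0.0157. With arrays centred on their medians 4 were higher and 3 lower. Both 24 h groups are set against the same naive arrays, so likeness between these lists of genes is no separate observation.

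The 24 h calls against naive also depended on single arrays and on the batch. In untreated grafts limma called 2 without naive 1, 1 without naive 2, 5 without donor 5, 5 without donor 6 and 6 without donor 7. In CO grafts it called 1 without naive 1, 1 without naive 2, 5 without donor 5 and 4 without donor 7. With the array batch as a block limma called none of the genes in either comparison. At an unadjusted p under 0.05, 9 were higher and 4 lower in untreated grafts, and 10 higher and 0 lower in CO grafts. Shares of all probe sets in these refits are not given here, so none of these counts can be set against them. Only untreated donor 5 shared a batch with a naive array, and its median difference from naive 2 was 0.08.

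MRPL35, a large-subunit protein, was at 6.00 and 6.03 in naive kidneys, at 6.30, 6.35, 6.15 and 6.18 in untreated 4 h grafts and at 6.24, 6.39, 6.21 and 6.18 in CO 4 h grafts. At 24 h it was at 7.07, 6.91, 6.79 and 6.55 in untreated and at 7.23, 6.78, 6.85 and 6.55 in CO grafts. Naive, 4 h and 24 h arrays formed 3 ranges that did not overlap, with the 24 h arrays highest, and donor 8 gave the lowest of the 24 h levels in both groups. The gene's other probe sets, both dimmer, differed between 24 h and 4 h by 0.27 and 0.12 in untreated and by 0.52 and -0.16 in CO grafts. The latter of them had a mean of 1.36, below the background of 1.61.

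MRPS12 sits at the decoding centre of the small subunit. It was at 5.50 and 6.24 in naive kidneys, at 5.93, 5.94, 5.82 and 5.77 in untreated 4 h grafts and at 5.70, 6.07, 5.82 and 5.39 in CO 4 h grafts. Its 24 h levels were 7.31, 6.72, 6.83 and 6.38 in untreated and 7.43, 7.04, 6.88 and 6.81 in CO grafts. All 24 h arrays were above all naive and 4 h arrays. Its other probe sets differed less from naive, by 0.24 and 0.23 in untreated and 0.36 and 0.55 in CO grafts, and with the gene's probe sets averaged its calls against naive were lost (limma adjusted p of 0.218 and 0.0729).

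MRPL28, a large-subunit protein, was below its naive level in all grafts. It was at 8.46 and 8.71 in naive kidneys, at 8.05, 7.90, 7.69 and 8.17 in untreated 4 h grafts and at 7.29, 8.06, 7.61 and 8.05 in CO 4 h grafts. At 24 h it was at 7.78, 7.23, 7.37 and 7.59 in untreated and at 7.76, 7.87, 7.55 and 7.36 in CO grafts. Every graft array was below both naive arrays, and the 4 h and 24 h arrays overlapped.

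TIMM44 tethers the mitochondrial HSP70 motor to the TIM23 channel and so drives precursors into the matrix. It was at 5.22 and 5.67 in naive kidneys, at 4.81, 4.73, 4.43 and 4.95 in untreated 4 h grafts and at 4.15, 4.30, 4.59 and 4.78 in CO 4 h grafts. The 24 h levels were 4.64, 4.53, 4.60 and 4.22 in untreated and 4.84, 4.67, 4.50 and 4.49 in CO grafts. Every graft array was below both naive arrays. The gene's other, dimmer probe sets stood at -0.21 and -0.53 at 4 h in CO grafts; in CO 24 h grafts they stood at 0.01 and -0.55, and with its probe sets averaged the CO calls were lost (limma adjusted p of 0.112 at 4 h and 0.24 at 24 h).

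**Figure D3:**
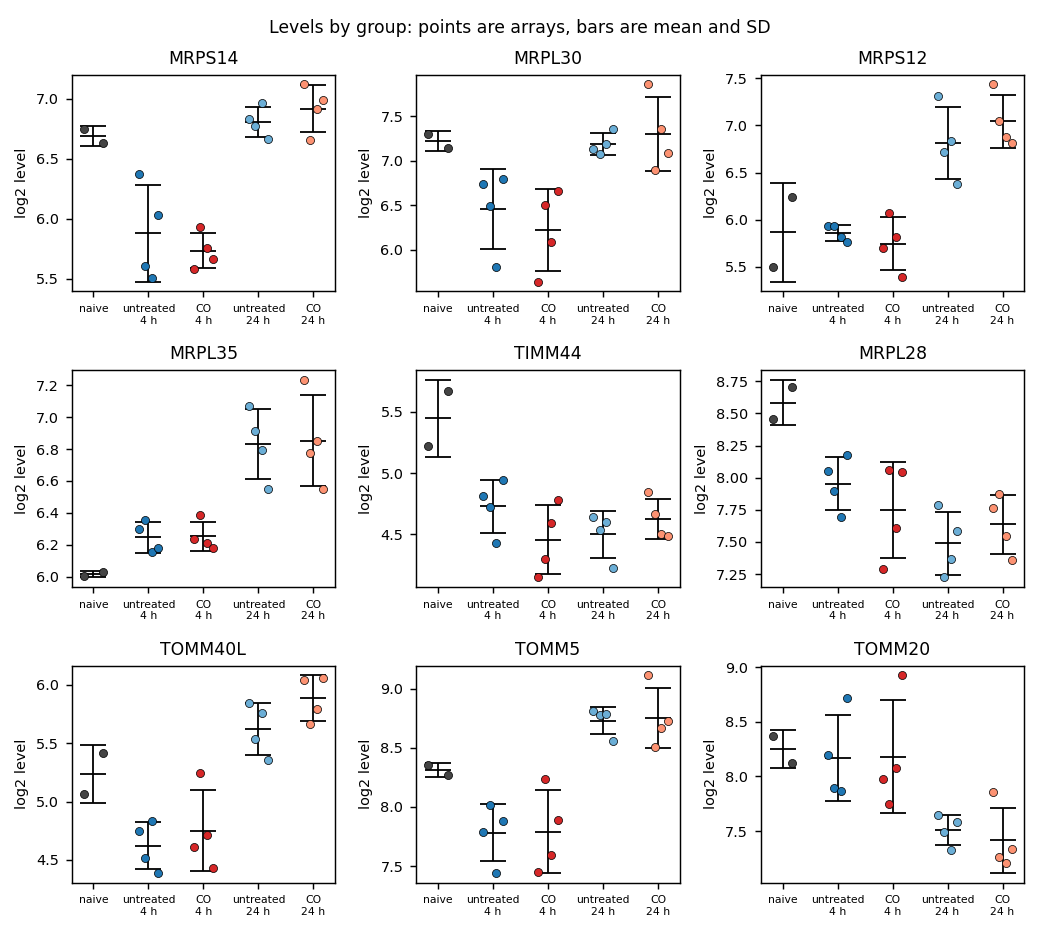
Log2 level of 9 genes on each array by group, with points for arrays and bars for the mean and SD (naive n = 2, other groups n = 4). MRPS14, MRPL30, TOMM40L and TOMM5 are low at 4 h, MRPS12 and MRPL35 are high at 24 h, TIMM44 and MRPL28 are below naive in all grafts, and TOMM20 is low at 24 h.

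The most genes were called between 24 h and 4 h. There 4 arrays stood against 4 and the genes' median SE was 0.17. Against the 2 naive arrays it was 0.21, so the counts of calls do not rank the sizes of change. The untreated and CO comparisons of 24 h with 4 h have no array in common. Both take their spread from the same fit over all 18 arrays, and at each time their grafts come from the same donors. In untreated grafts limma called 21 of the 76 genes higher at 24 h and none lower, where 5.15% of all probe sets and 9.61% of named genes were called higher and 4.57% and 6.65% lower. The genes' median difference was 0.35, against 0.02 over all probe sets and 0.07 over named genes, and 64 of the 76 lay above 0. The 8 largest rises were those of TOMM40L (1.00 ± 0.18, SE), MRPL51 (0.96 ± 0.17), TOMM5 (0.95 ± 0.17), MRPS12 (0.95 ± 0.21), MRPS14 (0.93 ± 0.17), MRPS28 (0.91 ± 0.20), MRPL52 (0.91 ± 0.21) and MRPL13 (0.88 ± 0.20), with limma adjusted p from 0.00214 for TOMM40L to 0.0103 for MRPL52. The 21 were 10 MRPL, 8 MRPS, 1 TIMM and 2 TOMM genes. In 33 genes every 24 h array was above every 4 h array, as were 7.11% of all probe sets, and 1 gene, TOMM20, lay below on every array, as did 6.14% of all probe sets. With a gene's probe sets averaged, MRPS12, MRPL52 and MRPL35 lost their call in untreated grafts (limma adjusted p of 0.0556 for MRPS12 and 0.116 for MRPL52). The other probe sets of MRPL52, both dimmer, differed by 0.12 and -0.09, and those of MRPS12 by 0.45 and 0.48.

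In CO grafts limma called 36 of the 76 higher at 24 h than at 4 h and 1 lower, where 10.2% of all probe sets and 17.9% of named genes were called higher and 7.44% and 8.51% lower. The genes' median difference was 0.47, against -0.04 over all probe sets and 0.07 over named genes, and 65 of the 76 lay above 0. MRPS12 (1.30 ± 0.21, SE), MRPS14 (1.19 ± 0.17), TOMM40L (1.14 ± 0.18), MRPL30 (1.08 ± 0.25), MRPL51 (1.05 ± 0.17), MRPS28 (1.00 ± 0.20), MRPL13 (1.00 ± 0.20) and MRPL14 (0.96 ± 0.18) rose most, with limma adjusted p from 0.000446 for MRPS14 to 0.00766 for MRPL30. The 36 were 17 MRPL, 10 MRPS, 6 TIMM and 3 TOMM genes. In 40 genes every 24 h array was above every 4 h array, as were 11.2% of all probe sets, and 0 lay below on every array, as did 9.68% of all probe sets. With a gene's probe sets averaged, MRPL35 and MRPL46 lost their call in CO grafts.

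Of the genes called higher at 24 h, 20 were called in both treatments, which is 95.2% of the untreated list and 55.6% of the CO list. Over all probe sets the shared calls were 84.4% of the untreated list and 42.7% of the CO list. MRPS34 was called in untreated grafts and not in CO grafts. Among the 16 called in CO and not in untreated grafts were TIMM50, TIMM22, TIMM13, TIMM17B, TIMM8B and TOMM34, and the difference between the treatments, tested as an interaction, passed for none of them.

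Time and array batch were almost the same division of the arrays. With the batch as a block limma called none of the 76 genes in either treatment. At an unadjusted p under 0.05, 18 were higher in untreated and 29 in CO grafts, and none lower, with medians of 0.48 and 0.64. The share and median of all probe sets in that fit are not given here, so these values cannot be set against them. The 1 direct comparison inside a batch, untreated donor 5 at 24 h minus untreated donor 2 at 4 h, had a median of 0.63 with 67 genes above 0; donor 5 minus CO donor 2 at 4 h had a median of 0.40 with 66 above 0. No batch holds CO arrays of both times, so the blocked value for CO grafts rests on links through untreated arrays. In untreated grafts limma called 13 without the 4 h array of donor 3, 12 without donor 5 and 11 without donor 6, and 12 with only the arrays of those groups; in CO grafts the fit with only their own arrays called 28, none lower.

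Among the TOM complex genes, TOMM40L, a relative of the channel protein TOMM40, was at 5.06 and 5.41 in naive kidneys. It was at 4.74, 4.52, 4.83 and 4.39 in untreated 4 h grafts and at 4.61, 5.24, 4.72 and 4.43 in CO 4 h grafts. At 24 h it was at 5.85, 5.54, 5.75 and 5.36 in untreated and at 6.04, 5.66, 5.79 and 6.06 in CO grafts. Every 24 h array was above every 4 h array, and untreated donor 8 alone among the 24 h arrays lay within the naive range.

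TOMM5, a small subunit of the same complex, was at 8.36 and 8.27 in naive kidneys. It was at 7.79, 8.01, 7.44 and 7.88 in untreated 4 h grafts and at 7.45, 8.23, 7.59 and 7.89 in CO 4 h grafts. Its 24 h levels were 8.81, 8.77, 8.78 and 8.56 in untreated and 9.11, 8.50, 8.67 and 8.72 in CO grafts. All 4 h arrays were below both naive arrays and all 24 h arrays were above them.

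TOMM20, the receptor that binds the presequences of matrix proteins, ran the other way. It was at 8.37 and 8.13 in naive kidneys, at 8.20, 7.90, 7.87 and 8.72 in untreated 4 h grafts and at 7.98, 7.75, 8.08 and 8.93 in CO 4 h grafts. At 24 h it was at 7.65, 7.50, 7.33 and 7.58 in untreated and at 7.86, 7.27, 7.21 and 7.33 in CO grafts. It was the 1 gene of the 76 called lower at 24 h, in CO grafts (-0.77 ± 0.24, SE, limma adjusted p = 0.0341); in untreated grafts the difference was -0.66 (limma adjusted p = 0.0938). The CO groups overlapped through donor 5 at 24 h, the untreated groups did not, and donor 4 had the highest 4 h level in both.

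TOMM70, the receptor for carrier proteins, differed between 24 h and 4 h by -0.45 in untreated and -0.64 in CO grafts, and neither was called (limma adjusted p of 0.325 and 0.0982). TOMM22, the complex's central receptor, differed by 0.49 and 0.37, and was not called either (0.144 and 0.219). TOMM34, a cytosolic cochaperone that carries the family symbol, differed by 0.24 in untreated grafts and rose by 0.47 in CO grafts (limma adjusted p = 0.0498). TOMM20, TOMM70, TIMM8A, MRPL15, MRPL28, MRPL50, MRPS10 and MRPS36 were the 8 genes with a lower mean at 24 h than at 4 h in both treatments.

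On the inner membrane, TIMM21, which links the TIM23 complex to the outer membrane, rose from 4 h to 24 h by 0.60 ± 0.17 (SE) in untreated and 0.79 ± 0.17 in CO grafts (limma adjusted p of 0.039 and 0.0056). TIMM50, the receptor of that complex, differed by 0.49 in untreated grafts (not called) and rose by 0.75 ± 0.19 in CO grafts. TIMM17B, a channel subunit, differed by 0.47 and rose by 0.51, and TIMM22, the translocase for carrier proteins, differed by 0.47 and rose by 0.60, each called in CO grafts and not in untreated grafts. TIMM44 differed by -0.23 and 0.17, called in neither.

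Among the small chaperones of the intermembrane space, TIMM13 and TIMM8B rose in CO grafts by 0.65 ± 0.13 (SE, limma adjusted p = 0.00311) and 0.53 ± 0.15 (0.0255), and differed by 0.34 and 0.33 in untreated grafts, not called. TIMM10 differed by 0.46 and 0.31 and TIMM9 by 0.25 and 0.35, none called. TIMM10B differed by 0.16 and 0.10. TIMM8A, the gene of a deafness and dystonia syndrome in people, differed by -0.34 and -0.27, and was not called in either treatment.

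In the ribosome, MRPL13 is a conserved large-subunit protein, at a mean of 6.88 in naive, 6.13 and 6.14 in untreated and CO 4 h grafts, and 7.00 and 7.15 at 24 h. MRPL3, which lies near the peptidyl transferase centre, was at 7.78 in naive, 7.35 and 7.27 at 4 h and 7.49 and 7.55 at 24 h, and was called in none of the comparisons. MRPS30, which structures place in the large subunit despite its symbol, was at 4.22 in naive, 4.17 and 4.39 at 4 h, and 4.97 and 5.17 at 24 h. It rose between the times by 0.80 ± 0.22 (SE) and 0.78 ± 0.22 (limma adjusted p of 0.0319 and 0.0246). MRPS36 was scattered within groups, from 3.29 to 4.98 among CO 4 h grafts.

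**Figure D4:**
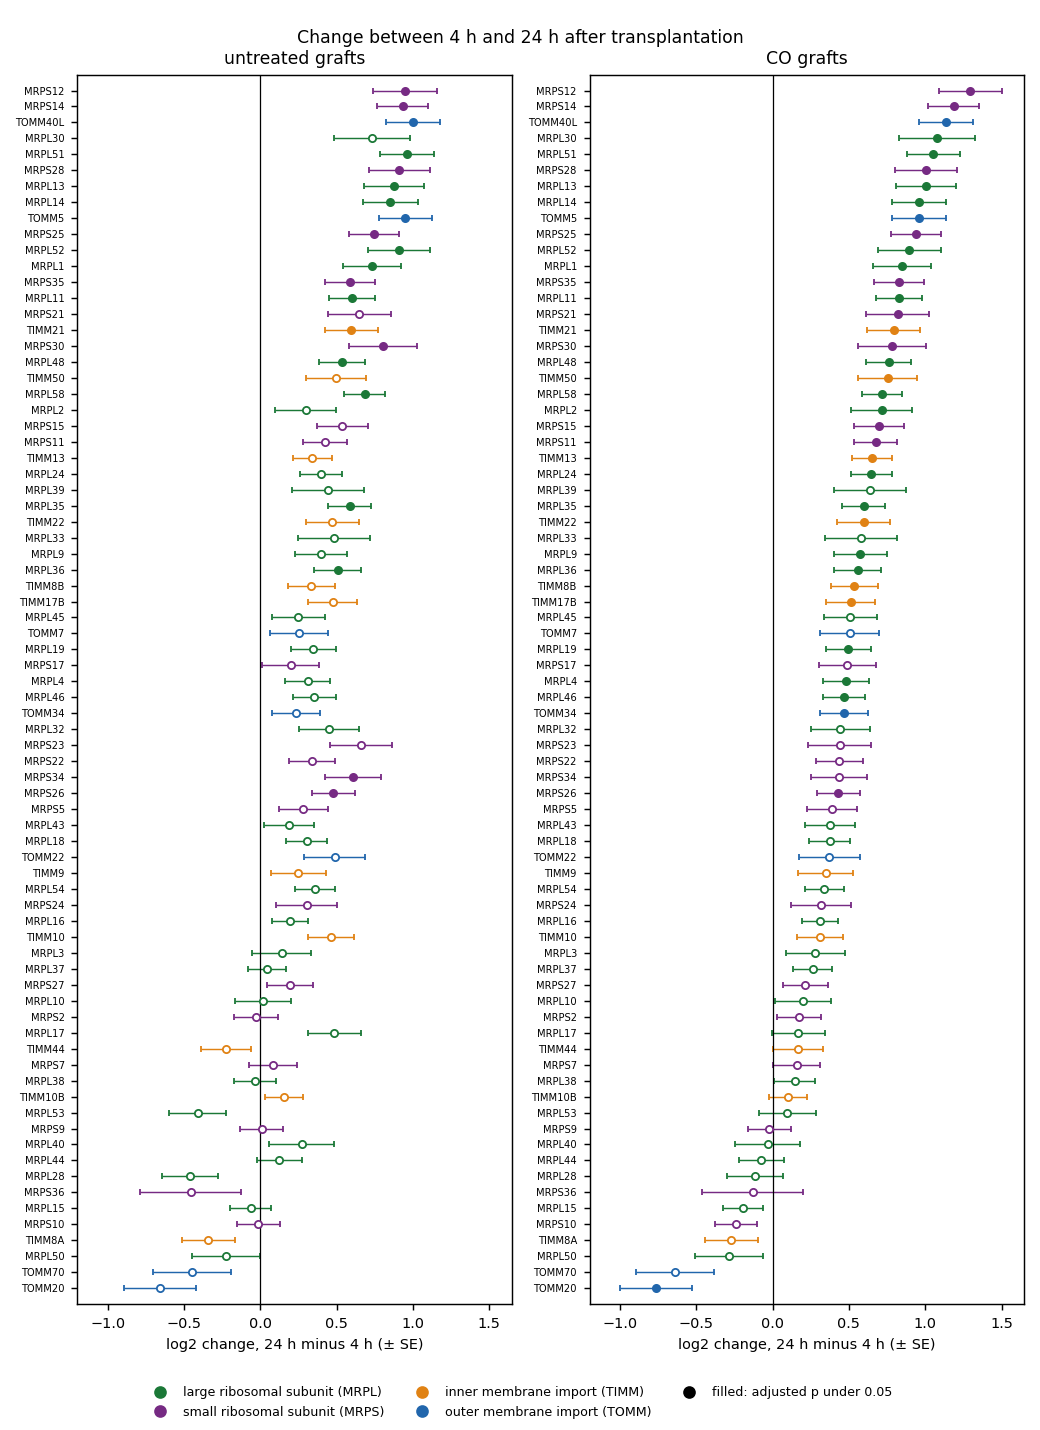
Log2 change from 4 h to 24 h with its SE for each of the 76 genes, in untreated grafts (left) and CO grafts (right), sorted by the CO value; filled points had a limma adjusted p under 0.05. There are 21 filled points on the left, all right of 0, and 37 on the right, of which TOMM20 is the only one left of 0.

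CO treatment was set against no treatment at each time. At 4 h limma called none of the 76 genes, as of all probe sets (0.0% called), and 1 gene was lower and none higher at an unadjusted p under 0.05, where 1.53% of all probe sets were lower and 1.75% higher. That gene, MRPL53, was at 8.19, 7.57, 7.32 and 7.76 in untreated and at 7.00, 7.04, 7.37 and 7.65 in CO grafts of donors 1 to 4, a difference of -0.44 ± 0.19 (SE, limma adjusted p = 0.999). The groups overlapped and donor 3 ran the other way. The next were MRPL44, at 0.27 ± 0.15, and TIMM44, at -0.27 ± 0.16, with the same adjusted p. The genes' median difference was -0.01 and its value within donors 1 to 4 was -0.26, 0.14, 0.07 and -0.07, so donors did not share a direction. The 95% intervals had a median reach of 0.36 to either side, and over the 76 genes their bounds ran from -0.84 to 0.72.

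At 24 h limma again called none of the genes (0.0% of all probe sets), and 1 was higher and none lower at an unadjusted p under 0.05, where 0.638% of all probe sets were higher and 0.533% lower. MRPS35, a small-subunit protein, was at 5.68, 5.63, 5.98 and 5.64 in untreated and at 6.47, 5.73, 6.04 and 6.14 in CO grafts of donors 5 to 8, a difference of 0.37 ± 0.16 (SE, limma adjusted p = 1.00). CO was higher in each of the 4 donors, while the groups overlapped. The next were TIMM13, at 0.23 ± 0.13, and MRPS11, at 0.21 ± 0.14. The genes' median difference was 0.09, with 60 of 76 above 0, against -0.00 over all probe sets. Within donors 5 to 8 it was 0.24, -0.02, 0.01 and 0.08, and without the CO array of donor 5 the median was -0.02. CO was higher in all 4 donors in 8 genes and lower in all 4 in none, against 4.84% and 4.29% of all probe sets; at 4 h the counts were 1 and 2, against 5.71% and 5.87%. Within batch 3, which holds 3 arrays of each treatment, the median was 0.15 with 64 genes above 0, against -0.01 over all probe sets. Its arrays are untreated donors 6, 7 and 8 and CO donors 5, 7 and 8, so only donors 7 and 8 are paired in it. The arrays of donor 5 lie in batches 2 and 3 and those of donor 6 in batches 3 and 4. At 4 h the median was -0.10 within batch 1 (3 arrays of each) and 0.14 within batch 2 (1 of each). The bounds of the 95% intervals ran from -0.62 to 1.05.

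The difference between the CO effects at 24 h and at 4 h was called for none of the 76 genes (0.0% of all probe sets), with a median of 0.12 and 57 genes above 0. At an unadjusted p under 0.05 none was higher or lower, against 1.47% and 1.08% of all probe sets. The smallest p was that of MRPL53 (0.51, unadjusted p = 0.071, limma adjusted p = 0.996), followed by TIMM13 (0.31) and TIMM44 (0.40). With the donor as a replicate block, none of the genes was called in the CO comparisons either.

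Other genes of these pathways were read from lists of partners, of which 20 of 35 import and protein quality genes, 20 of 42 translation and assembly genes and 11 of 22 transcription and regulator genes were measured. Among the import and quality genes, limma called 1 higher and 3 lower at 4 h in CO grafts, none higher and 7 lower in untreated and none higher and 3 lower in CO grafts at 24 h, all against naive. Beside these stand 9.8% of named genes called higher and 10.7% lower for CO 4 h grafts, 12.2% and 10.7% for untreated 24 h grafts, and 10.5% and 8.29% for CO 24 h grafts. DNAJC19, a cochaperone of the import motor, fell by 1.44 in untreated and 1.32 in CO grafts at 24 h, IMMP2L, an inner membrane peptidase, by 1.31 in untreated grafts, and MIPEP, which trims imported presequences, by 0.95 and 0.87. The chaperonin HSPD1 rose by 1.00 ± 0.29 (SE) in CO 4 h grafts. From 4 h to 24 h limma called none higher and 4 lower in untreated grafts, where 9.61% of named genes were higher and 6.65% lower, and 4 higher and 4 lower in CO grafts, where the shares were 17.9% and 8.51%. HSPD1 fell by 1.05 and 1.30, its partner HSPE1 by 0.80 and 0.97, and CHCHD4, which oxidises small TIMM proteins in the intermembrane space, by 1.13 and 0.99, in untreated and CO grafts in turn. IMMP2L also fell in untreated grafts, by 1.02, and HSPA9, the mitochondrial HSP70, in CO grafts, by 0.43. The 4 that rose in CO grafts were CHCHD3, a protein of the cristae junctions (0.71), GFER, the oxidase that works with CHCHD4 (0.48), YME1L1, an inner membrane protease (0.48), and DNAJA3, a cochaperone of HSPA9 (0.42).

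Among the translation and assembly genes, limma called 2 of 20 higher at 24 h than at 4 h in untreated and 5 of 20 in CO grafts, and none lower, beside 9.61% and 17.9% of named genes called higher. Against naive it called 1 higher and 2 lower in CO 4 h grafts, and 1 higher and none lower in each 24 h group. Beside these stand 9.8% of named genes called higher and 10.7% lower for CO 4 h grafts. For 24 h grafts the shares were 12.2% and 10.7% in untreated and 10.5% and 8.29% in CO grafts. MRRF, which recycles mitochondrial ribosomes, fell by 0.86 in CO 4 h grafts against naive and rose from 4 h to 24 h by 0.66 in untreated and 0.93 in CO grafts. VARS2, a mitochondrial tRNA synthetase, rose by 0.61 and 0.72, and TUFM, the elongation factor, by 0.58 in CO grafts.

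Among the 11 transcription and regulator genes limma called 2 higher than naive in each 4 h group, 4 in each 24 h group and 3 higher at 24 h than at 4 h in each treatment, and none lower. The shares of named genes called higher were 9.8% for CO 4 h grafts, 12.2% and 10.5% for untreated and CO 24 h grafts, and 9.61% and 17.9% between the times. Shares called lower were 10.7%, 10.7%, 8.29%, 6.65% and 8.51% in the same order. For untreated 4 h grafts 103 of the 6765 named genes were called higher and 49 lower. PPRC1, a coactivator of nuclear genes for mitochondrial proteins, was higher than naive in all 4 graft groups, by 2.45 and 2.87 at 4 h and 2.59 and 2.61 at 24 h in untreated and CO grafts. MYC, a transcription factor of growth genes, was higher by 2.64 and 2.95 at 4 h and by 2.63 and 2.30 at 24 h. From 4 h to 24 h TFB1M, which methylates the mitochondrial ribosomal RNA, rose by 1.03 and 1.04, SSBP1, which binds single-stranded mitochondrial DNA, by 0.74 and 0.77, and PNPT1, the mitochondrial polynucleotide phosphorylase, by 0.57 and 0.67; all 6 had a limma adjusted p under 0.05. None of the genes in these lists was called between CO and untreated grafts.

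Markers of cell types moved at the same time. Of 15 proximal tubule markers 8 were measured, and limma called all 8 lower than naive in untreated and 7 in CO 24 h grafts. Among named genes 10.7% and 8.29% were called lower there. The markers' summed log2 level was 79.6 to 80.1 in naive kidneys, 70.6 to 77.4 in untreated and 62.2 to 74.7 in CO 4 h grafts, and 42.7 to 56.0 and 52.4 to 62.9 at 24 h. None of them was below background in any group. These markers fell further from 4 h to 24 h (8 called lower in untreated and 4 in CO grafts), over the same interval in which 21 and 36 of the mitochondrial genes rose. Over that interval 6.65% and 8.51% of named genes were called lower and 9.61% and 17.9% higher. Of 14 granulocyte and macrophage markers 11 were measured, with a summed level of 30.3 to 36.9 in naive kidneys, 41.1 to 60.9 and 41.1 to 45.4 in untreated and CO 4 h grafts, and 47.9 to 62.8 and 41.2 to 61.3 at 24 h. S100A8, S100A9 and S100A12 were below background in naive kidneys, as was S100A12 in both 24 h groups and S100A8 in CO 24 h grafts. The 8 lymphocyte markers measured of 10 summed to 18.8 to 24.3 in naive kidneys, 21.9 to 28.9 in untreated and 18.0 to 25.7 in CO 4 h grafts, 22.3 to 42.3 in untreated and 21.0 to 38.8 in CO 24 h grafts, with CD79B below background throughout. In untreated 24 h grafts limma called 6 of the 11 granulocyte and macrophage markers and 2 of the 8 lymphocyte markers higher than naive. In CO 24 h grafts it called 4 and 0. Among named genes 12.2% and 10.5% were called higher in untreated and CO 24 h grafts. Of the other lists, 5 of 12 markers of the loop and distal nephron, all 7 endothelial and 4 of 5 erythroid markers were measured. Limma called at most 2 of a list in either direction in any comparison. The summed levels of these lists in naive and graft arrays together ran from 28.8 to 37.3, from 31.6 to 40.6 and from 10.6 to 15.6. Of the 5 loop and distal nephron markers, EGF and SCNN1A were called lower than naive in both 24 h groups. The shares of named genes called lower were 10.7% and 8.29%. EGF stood at -4.2 in untreated and -3.7 in CO 24 h grafts, and SCNN1A at -0.88 and -0.96. ATP6V0A4 was called lower than naive at 4 h, at -2.2 in untreated and -2.0 in CO grafts. KCNJ1 was called higher at 24 h than at 4 h in CO grafts (1.6), while EGF (-2.7) and SCNN1A (-1.2) were called lower. In untreated grafts EGF was called lower over that interval (-3.7). The part of these cell types in the levels of the mitochondrial genes was not tested.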

How the data were processed

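The log2 values were deposited by the authors, 1 value per probe set and array, summarised with RMA per the submitters' processing notes; its version and settings are not given in the sources used here. The values run from 0.226 to 13.5, and array medians from 3.75 to 3.94. Of 24123 probe sets, 124 controls were left out. The platform annotation gives 10069 probe sets 1 symbol, 198 several and 13732 none; of the 76 genes 75 matched RefSeq by gene ID. The number of arrays limits the precision.

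Groups were read from titles and source names. Each contrast was fitted with limma 3.58.1 in R 4.3.3 (lmFit on group means of all 18 arrays, eBayes, two-sided, Benjamini-Hochberg over 23999 probe sets, no filter). The method was tested on simulated data. Alternatives were a variance trend with robust eBayes, a filter on dim probe sets, centred arrays, averaged probe sets, batch as a block, only the compared groups, the donor as a replicate block (statmod 1.5.0 where random), and leaving out each array. Same-donor arrays come from the same donor per the labels; after group means were removed they correlated at -0.20, 0.07, 0.28, 0.57, 0.16, 0.35, 0.27 and 0.39 for donors 1 to 8.

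Named genes are up to 8 largest rises and 8 largest falls among the calls of a comparison, or the 3 of smallest p where none was called, and a fixed list of import and ribosome genes. Other values shown per array were chosen after they were seen. Members, lists and tests were chosen with earlier results of these data known. No sequence or genome position is printed, since no sequence tables were used here. Tables and figures used Python 3.11.15, pandas 2.3.3 and matplotlib 3.10.9.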

Additional observations from a re-analysis of the deposited data

Results flagged for a closer look

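For 28 genes and for the medians of all 76 genes and of each symbol family, the 4 values of each graft group, 132 groups in all, were examined for an array far from the other 3, by Dixon's ratio of gap to range above 0.829. There were 5 such values, and chance alone gives about 1 in 20 groups. MRPS35 was at 4.88 in the untreated 4 h graft of donor 3, below the other 3, and at 5.98 in the untreated 24 h graft of donor 7, above the others. MRPS10 was at 6.75 in the CO 4 h graft of donor 2, below the others. TOMM5 was at 8.56 in the untreated 24 h graft of donor 8, below the others, and MRPL39 was at 7.31 in the CO 24 h graft of donor 5, above the others.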

How the results depend on the processing

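The limits are 2 naive arrays, 4 arrays per graft group, and a batch that nearly coincides with time. The 44 called changes among the up to 8 largest rises and 8 largest falls of a comparison were looked up in its alternative fits. This gave 606 pairs of a change and a fit. Calls named only through the fixed list, such as those of MRPS30 and TOMM34 between the times, were not among the 44. Many pairs share a fit, so they are not separate checks. In 451 pairs the change stayed past the threshold, in 155 it lost it (37 of them with the batch as a block) and in 0 it reversed. With the batch as a block the count of genes called went from 18 to 10 for CO 4 h against naive and to 0 for both 24 h groups against naive and for both 24 h against 4 h comparisons. With only the compared groups it was 7 for CO 4 h against naive and 12 for untreated 24 h against 4 h. Leaving out each array in turn gave 0 to 20 for untreated 4 h, 0 to 25 for CO 4 h, 1 to 14 for untreated 24 h and 1 to 10 for CO 24 h against naive, 11 to 25 for 24 h against 4 h in untreated and 25 to 39 in CO grafts, and 0 in the CO comparisons. The replicate block on donors gave 0 in the CO comparisons, and as a random block (correlation 0.128) changed no count by over 1.5 times: 18, 11, 8, 20 and 37 in the comparisons that had calls. The cause of these changes was not tested, and the shares of all probe sets called in these fits are not given here. Of 17 genes with several probe sets, all went the same way in 9 to 14, depending on the comparison.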
